A study of Mus musculus with 74 samples.

Results

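The lining of the mouse forestomach was set against the lining of the small intestine at embryonic day 16 (E16) by RNA sequencing. The comparison was chosen by the sample labels and holds both wild-type E16 forestomach libraries and both wild-type E16 small intestine libraries, 4 of the 74 samples of the study. All 4 came from untreated CD1 embryos with no engineered allele. Each organ was digested in trypsin, cells carrying Epcam, a surface protein of epithelia, were collected by flow cytometry, and their RNA was amplified with a low-input kit and sequenced as single reads. The study follows the making of the intestine from the gut tube. It also holds wild-type CD1 forestomach and small intestine libraries of E14 and E12 and hindstomach libraries of E16, 2 for each organ and stage, which are given here side by side; the labels call the cells of the E12 and E14 small intestine midgut. Nothing in the labels says that the 2 libraries of a group came from separate embryos or litters, or whether embryos were pooled, so p-values measure the spread between these samples, which may be technical.

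The forestomach is the squamous-lined front part of the rodent stomach and continues the oesophagus. Its stratified epithelium keeps dividing cells in a basal layer, held to the basement membrane and marked by the transcription factor p63, and moves them outward as they build keratin filaments and a cornified envelope. The small intestine is instead lined by one layer of columnar cells: absorptive enterocytes with a brush border of microvilli, mucus-secreting goblet cells and hormone-secreting enteroendocrine cells. SOX2 is the classical factor of the foregut and CDX2 that of the intestine.

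The forestomach libraries were the shallowest of the 27 embryonic libraries fitted together, with 5970227 and 6335340 counts, against 16685602 and 18306362 in the small intestine and a median of 21978170. Levels are CPM, counts scaled to one common library size by the trimmed mean of M-values, and differences are log2 fold changes, forestomach minus small intestine, with their standard errors (SE). The 2 libraries of an organ resembled each other more than the other organ: Spearman correlations across genes were 0.9767 within the forestomach and 0.9851 within the intestine, and 0.788 to 0.792 between them. The E16 hindstomach correlated at 0.875 to 0.888 with the forestomach and at 0.878 to 0.882 with the intestine. Genes are not independent replicates, so these are descriptions.

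Both labels were borne out by the defining factors. Sox2 stood at 41.4 and 35.4 CPM in the forestomach and at 0.805 and 0 in the small intestine. Cdx2 stood at 0.463 and 0 CPM in the forestomach, 3 and 0 counts, and at 196 and 218 in the small intestine, which makes it at least 449-fold lower in the forestomach. The values of either gene did not overlap between organs. Hindstomach libraries held both, Sox2 at 32.4 and 25.1 CPM and Cdx2 at 12.1 and 13.1.

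The sorted forestomach cells also carried marker RNA of other cell types. Markers of red blood cells took up 1.69% and 2.21% of the forestomach counts against 0.0219% and 0.0222% in the intestine, smooth muscle markers 2.12% and 2.57% against 0.028% and 0.0351%, and mesenchymal markers 1.31% and 1.5% against 0.152% and 0.165%. The 85 markers of 10 other cell types summed to 5.38% and 6.5% of forestomach counts and to 0.352% and 0.365% of intestinal ones, while none of the other 18 wild-type embryonic libraries passed 1.87%. In the forestomach at E14 the same sum was 0.0643% and 0.0585%, below the 0.126% and 0.131% of the E14 intestine. Alas2, the haem synthesis enzyme of red cells, stood at 13300 and 18230 CPM against 164.5 and 165.2, and Acta2, smooth muscle actin, at 7027 and 8577 against 91.4 and 105. Against the 18.6% of all tested genes that were called higher in the forestomach, 6 of 6 blood markers tested, 8 of 8 smooth muscle, 10 of 12 mesenchymal, 7 of 12 immune, 4 of 6 skeletal muscle, 4 of 5 mesothelial and 2 of 8 endothelial markers were called higher in the forestomach. Enteric nervous system markers took similar shares, 0.00728% and 0.0103% against 0.00843% and 0.00976%. The immune count fell to 2 without forestomach replicate 1 or intestinal replicate 1 and to 3 without intestinal replicate 2, and the endothelial count to 1 without any of forestomach replicate 1, forestomach replicate 2 and intestinal replicate 1. Among defining markers, Hbb-bh1 and Twist1 had no count in the intestine. The adult globin genes had none in any library, so the blood shares do not include them. In each E16 forestomach library 6 of the 12 blood markers had 3 counts or fewer. Whether adult globin RNA was absent or was left uncounted was not tested. In the other direction, 5 of 7 pancreatic and 3 of 7 liver markers were lower in the forestomach; the pancreatic count is 3 without forestomach replicate 2, and the liver count 1 without either forestomach library. In such bulk samples, fewer cells of a type and less RNA per cell cannot be told apart.

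**Figure D1:**
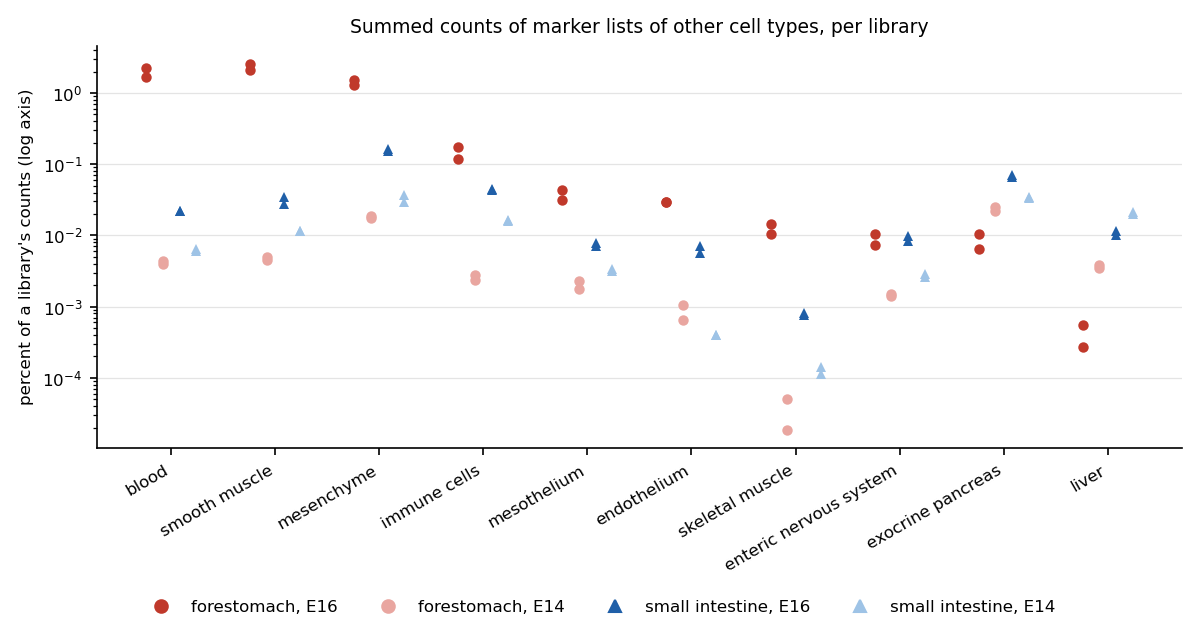
Share of each library's counts (percent, log axis) in marker lists of 10 other cell types. Each point is 1 wild-type library; circles are forestomach and triangles small intestine, dark at E16 and pale at E14. The E16 forestomach points lie above all others in the plot for blood, smooth muscle, mesenchyme, immune cells, mesothelium, endothelium and skeletal muscle.

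Of 17239 genes tested, 6037 (35.0%) differed between the organs by at least 2-fold at an adjusted p below 0.05. In the forestomach 3213 (18.6%) were higher and 2824 (16.4%) lower. These shares are the background for every list, whose counts are members passing the same test. The lists have no test of their own and were drawn up with earlier results of these data known. With another scaling (relative log expression) the median difference over all genes moves from 0 to 0.19 and the counts to 3689 and 2330, so small differences take their sign from the scaling.

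The 10 leading genes of the forestomach are mostly known from squamous cells. Krtdap, a secreted protein of differentiating keratinocytes, stood at 241 and 181 CPM and had no count in either intestinal library, which makes it at least 1342-fold higher. Col17a1, the transmembrane collagen of hemidesmosomes, stood at 98.3 and 120 CPM against 0, and Trp63, which encodes p63, at 77.3 and 86.7 against 0. Lypd3, a membrane protein of suprabasal keratinocytes, stood at 116 and 91.4 CPM against 0. The basal keratin Krt14 was at least 3127-fold higher, with 536 and 448 CPM against 0.0503 and 0. Sprr3, a small proline-rich precursor of the cornified envelope, Serpinb5 (maspin), the protease gene Klk10 and Pkp1, the plakophilin of squamous desmosomes, were at least 654-, 549-, 490- and 397-fold higher. The last of the 10, 2300002M23Rik, stood at 128 and 112 CPM against 0 (adjusted p = 1.6e-04), and DESeq2 gave it no call. These 10 were chosen for values that do not overlap between the organs; in the hindstomach the mean of each lay between 0.7 and 5.83 CPM.

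On the intestinal side the 10 leading genes held 5 of the enterocyte surface and its microvilli, 2 neighbouring enzymes of nitrogen metabolism, a transcription factor, a hydrolase and a goblet cell gene. Muc13, a transmembrane mucin of the enterocyte surface, had no count in either forestomach library and 932 and 931 CPM in the intestine, at least 2019-fold lower in the forestomach. Vil1, the villin that bundles actin in microvilli, was at 537 and 561 CPM against no forestomach count, at least 1190-fold lower. Cdhr2 and Ush1c, a protocadherin and a scaffold of the links between microvilli, and Eps8l3, a member of the Eps8 actin regulator family, were also without a forestomach count, at least 722-, 405- and 689-fold lower. Cps1, the ammonia-fixing first enzyme of the urea cycle, stood at 3789 and 3357 CPM in the intestine and had a single count in the forestomach libraries together. Otc, which acts next to it and makes citrulline, stood at 225 and 226 CPM against 0. The remaining 3, Cdx1, the hydrolase gene Aadac and the goblet cell gene Spink4, had no forestomach count and stood at 324 and 299, 283 and 275, and 259 and 239 CPM.

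**Figure D2:**
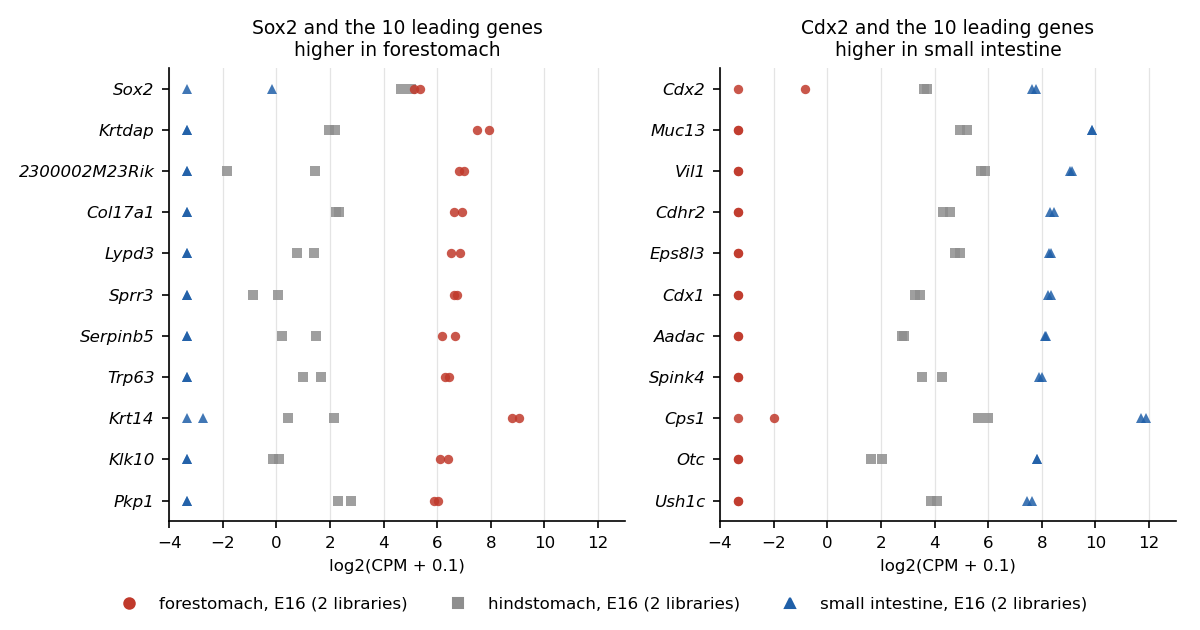
Level of Sox2, Cdx2 and the 10 leading genes of each direction in the E16 libraries, as log2(CPM + 0.1); each point is 1 library. Circles (forestomach) and triangles (small intestine) do not overlap for any gene drawn, which the choice of the leading genes fixed, and squares (hindstomach) mostly lie between them; a point at the left edge is a library with no count.

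The promoters of 4 strongly different genes are shown because they hold short motifs of factors known for these tissues. They are the 250 bases before the RefSeq start site, from the RefSeq table of build GRCm38.p6 (the build of the count table is mm9), printed 5′ to 3′ on the strand of the gene. Capitals mark motif letters. In the forestomach genes Krtdap (chr7:30787655-30787904, plus strand) and Serpinb5 (chr1:106860925-106861174, plus strand) they mark TGANTCA, at -81 and -140 from the start. This is the pattern searched for AP-1, with N for any base, and its shares count every such match. It reads TGAGTCA in Krtdap and TGAATCA in Serpinb5. In Krtdap they also mark TATAAA at -30. In the intestinal gene Fabp1 (chr6:71199629-71199878, plus strand) they mark the CDX motif TTTATG at -226 and -88 and TATAAA at -30. Both CDX matches lie on the other strand and read CATAAA here. In the intestinal gene Cdhr2 (chr13:54701213-54701462, plus strand) they mark only the HNF1 motif GTTAATNAT, at -54. These 4 were chosen for their matches.
Krtdap: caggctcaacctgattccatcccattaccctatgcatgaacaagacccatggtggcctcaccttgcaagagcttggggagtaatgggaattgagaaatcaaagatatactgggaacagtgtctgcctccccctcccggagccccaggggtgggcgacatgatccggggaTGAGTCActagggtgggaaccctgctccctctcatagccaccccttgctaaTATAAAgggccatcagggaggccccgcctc
Serpinb5: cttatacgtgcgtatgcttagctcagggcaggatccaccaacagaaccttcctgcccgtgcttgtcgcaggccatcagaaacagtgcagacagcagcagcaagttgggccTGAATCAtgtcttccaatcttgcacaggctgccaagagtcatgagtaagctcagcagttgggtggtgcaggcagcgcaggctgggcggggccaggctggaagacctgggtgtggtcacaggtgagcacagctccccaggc
Fabp1: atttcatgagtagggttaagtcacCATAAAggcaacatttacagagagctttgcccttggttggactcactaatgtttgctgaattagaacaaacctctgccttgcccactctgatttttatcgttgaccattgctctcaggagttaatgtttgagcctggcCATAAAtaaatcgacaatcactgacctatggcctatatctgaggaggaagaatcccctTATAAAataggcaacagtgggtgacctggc
Cdhr2: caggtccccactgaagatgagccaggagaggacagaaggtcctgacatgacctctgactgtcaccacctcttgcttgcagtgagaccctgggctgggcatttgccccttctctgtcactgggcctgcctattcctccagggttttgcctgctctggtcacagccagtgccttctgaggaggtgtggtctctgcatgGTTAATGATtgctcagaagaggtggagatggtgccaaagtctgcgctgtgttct

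Over windows of 250 bases before to 50 after the start, searched on both strands, TGANTCA was in 15 of 44 promoters (34.1%) of the 37 genes in the basal, suprabasal and cornified lists that had an entry. It was in 10 of 90 (11.1%) of the 71 enterocyte genes with an entry and in 5.76% of promoters of all tested genes. The HNF4 motif CAAAGTCCA was in 5 of the 90 enterocyte promoters (5.56%), none of the squamous ones and 0.518% of tested genes' promoters. GTTAATNAT was in 4 of the 90 (4.44%), none of the squamous ones and 0.599% of tested genes' promoters. TTTATG was in 13 of the 90 (14.4%), 3 of the 44 (6.82%) and 7.38% of tested genes' promoters, and TATAAA in 18 of the 90, 13 of the 44 (29.5%) and 8.57%. Over all called genes the shares were near those of tested genes for TGANTCA (6.0% of promoters of genes higher in the forestomach, 6.95% of those higher in the intestine) and TTTATG (7.08% and 7.25%). For CAAAGTCCA they were 0.236% and 1.15%, and for GTTAATNAT 0.27% and 1.41%. Among all 32851 promoters of the table the shares were 7.81% for TGANTCA, 0.475% for CAAAGTCCA, 0.801% for GTTAATNAT, 11.9% for TTTATG and 13.6% for TATAAA. The motif searched for GATA factors was AGATAAG (4 of the 90 enterocyte promoters and 1 of the 44 squamous ones), for SOX2 CATTGTT (4 and 0) and for the p63 core ACATGTC (1 and 0), against 2.15%, 2.17% and 1.16% of tested genes' promoters. These motifs do not overlap in the printed promoters; a match is a string of letters and not a bound site.

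Genes of the basal layer were high in the forestomach, but its anchoring integrins were not. Of 15 basal genes tested, 10 were called higher and the other 5 were not called, with a median log2 difference of 3.32. Krt5, the basal keratin that pairs with Krt14, stood at 1735 and 1356 CPM in the forestomach and at 0.503 and 0 in the intestine, a difference of 12.50 ± 1.22 (SE, n = 2 per organ, adjusted p = 1.2e-07). Krt15, another basal keratin, stood at 3854 and 3424 CPM against 1.26 and 1.97. Both keratins were already high at E14, with E14 differences of 11.04 and 10.48. Col7a1, the collagen of anchoring fibrils, differed by 5.88 ± 1.11, the laminin chain gene Lamb3 by 2.93 ± 0.54 and the laminin receptor Bcam by 3.32 ± 0.21. Itga6 and Itgb4, whose products form the integrin of hemidesmosomes, stood at 39.7 and 51.3 against 62.2 and 64.0 CPM and at 51.4 and 57.7 against 62.5 and 47.6. Neither passed the test at E16 (differences of -0.47 ± 0.13 and -0.01 ± 0.19), nor did Itga3 (-0.70 ± 0.16). At E14 Itga6 and Itgb4 were called higher in the forestomach, by 1.12 and 2.16, and the change between stages passed the interaction test for Itga3, Itga6 and Itgb4 (-1.63, -1.59 and -2.17).

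The suprabasal programme was uniformly higher in the forestomach. All 20 suprabasal genes tested were called, with a median difference of 9.35 (7.36 with the genes absent from the intestine set at their lower bound). Krt4 and Krt13, the keratin pair of inner squamous linings, stood at 1310 and 1621 CPM against 0.302 and 0.491 and at 636 and 584 CPM against 0 and 0.109. Krt6a and Krt17, keratins of activated and appendage epithelium, differed by 9.50 ± 1.04 and 7.44 ± 1.13. The keratins of dry skin were also called, Krt1 at 9.11 and 8.73 CPM against 0 and 0.382, and Krt10 at 34.9 and 15.3 against 6.24 and 4.86. Sfn, stratifin of stratified epithelia, was higher by 2.31 ± 0.28, Ly6d by 9.20 ± 0.55 and Lgals7, a galectin of stratified epithelium, by at least 372-fold. Krt6b, Krt16 and Calml3, each without an intestinal count and at most 4.17, 26.2 and 9.64 CPM in the forestomach, were called by edgeR and not by DESeq2, and Krt6b lost its call without either intestinal library.

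Of 18 cornified envelope genes tested, 13 were called higher and the other 5 were not called; without intestinal replicate 1 the count was 8. Cnfn, the envelope protein cornifelin, stood at 317 and 308 CPM against 0 and 0.164, at least 1986-fold higher, and Lor, loricrin, at 36.1 and 39.95 against 0.252 and 0.601. The envelope scaffold genes Ppl (periplakin) and Tgm1 (the transglutaminase that cross-links the envelope) differed by 2.42 ± 0.20 and 4.51 ± 0.67. Of the genes not called, Ivl, involucrin, stood at 0.463 and 1.23 CPM against 0 and 0.218, Spink5 had at most 0.772 CPM in any library, and Abca12, the lipid transporter of skin, had no count in any of the 4. Cers3, the ceramide synthase of skin, was called, at 8.80 and 3.83 CPM against 0. Secreted and protease inhibitor genes of squamous cells followed the same direction, with 14 of 19 higher and 1 lower. The E16 hindstomach was similar, with 13 of the 19 higher than in the intestine and 1 lower. Between forestomach and hindstomach 7 of the 19 were higher in the forestomach and 0 lower. Psca stood at 710 and 733 CPM against 0 and 0.328, a difference of 12.12 ± 0.80, and Anxa1, annexin A1, at 1255 and 1241 against 50.4 and 46.4. The genes of calprotectin, S100a8 and S100a9, which myeloid cells also express, stood at 237 and 191 against 4.33 and 4.26 CPM and at 301 and 243 against 4.43 and 5.46. Immune markers were higher in the same libraries, and their part in these 2 genes was not tested. The 1 lower gene was Serpinb1a, an inhibitor of neutrophil proteases, by -3.12 ± 0.47.

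**Figure D3:**
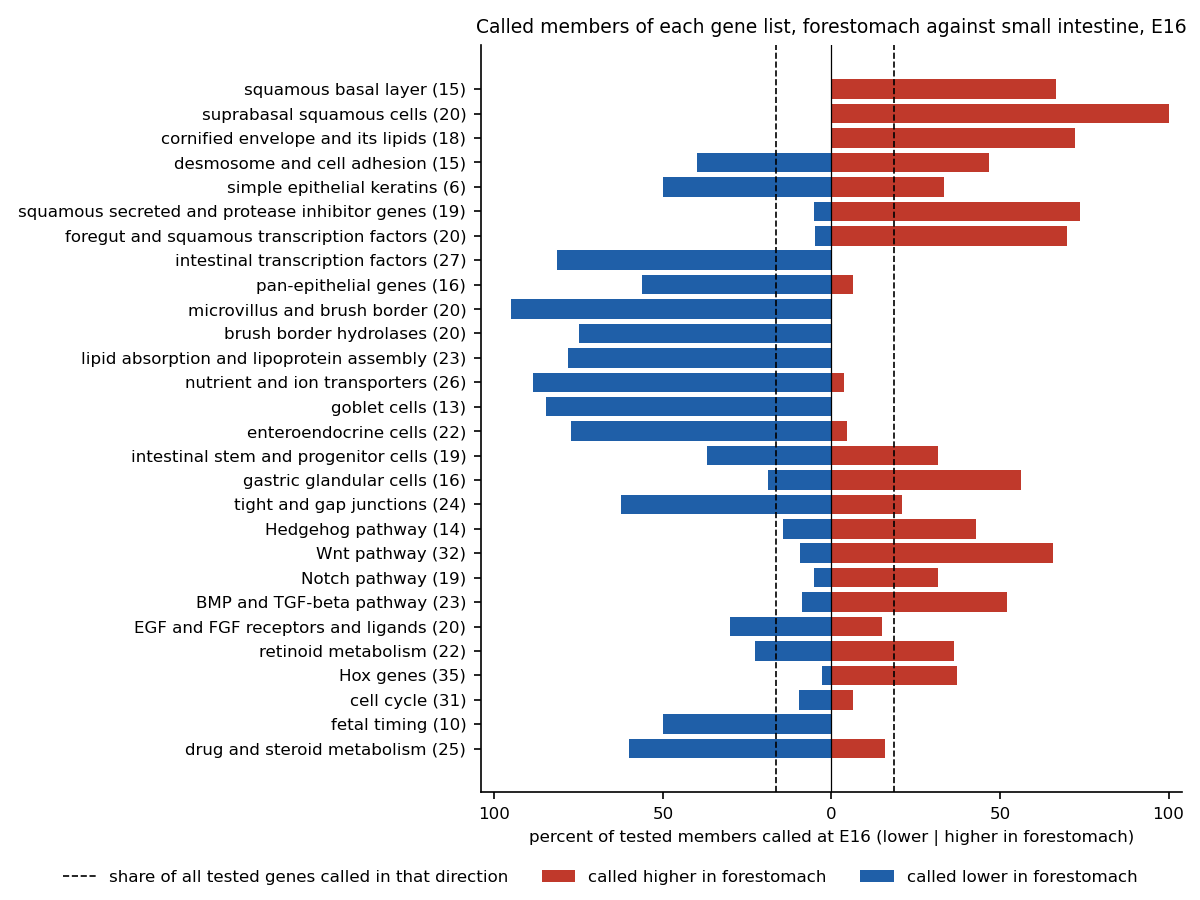
Percent of tested members of 28 gene lists called at E16, bars to the right for higher and to the left for lower in the forestomach, with the number tested in brackets. Dashed lines mark the shares of all 17239 tested genes, 18.6% higher and 16.4% lower. Suprabasal genes reach 100% on the right, and microvillus and brush border genes, 19 of 20, come closest to it on the left.

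Transcription factors separated along the same line. Of 20 factors of the foregut and of squamous epithelium, 14 were higher in the forestomach and 1 lower. Besides Trp63 and Sox2, Sox21 stood at 72.1 and 67.4 CPM against 0.0503 and 0, at least 443-fold higher, and Sox15 at 15.9 and 15 against 0. Pitx1, a homeobox factor of foregut and hindlimb, stood at 482 and 403 CPM against 21.2 and 26.5 (4.21 ± 0.28). Tfap2c, Grhl3 and Zfp750, factors of epidermal differentiation, were higher as well, Grhl3 by 5.43 ± 0.67 and the other two by at least 178- and 72.8-fold.

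Of 27 intestinal factors, 22 were lower in the forestomach and the other 5 were not called. Isx, a homeobox factor of enterocytes, had no count in the forestomach and 118 and 124 CPM in the intestine. Hnf4g and Hnf4a, nuclear receptors of enterocyte genes, stood at 1.39 and 0 against 296 and 293 CPM and at 1.24 and 6.89 against 389 and 349. The bile acid receptor gene Nr1h4 was at least 374-fold lower. The 6 GATA factors split. The endodermal Gata4, Gata5 and Gata6 were lower, by -3.67 ± 0.24, -3.75 ± 0.35 and -2.92 ± 0.22. Gata3, the member known in squamous epithelium, stood at 8.95 and 11.02 against 3.37 and 1.80 CPM, a difference of 1.95 ± 0.59 that was not called without intestinal replicate 2. The blood factors Gata1 and Gata2 were higher, by 4.51 ± 1.49 and 2.19 ± 0.87, calls lost without intestinal replicate 2 and, for Gata2, without any 1 of the 4 libraries. Foxa1, a pioneer factor of endoderm, and Sox9, a factor of progenitor cells, did not pass. Foxa1 stood at 57.6 and 43.9 against 82.3 and 84.0 CPM and Sox9 at 50.3 and 45.5 against 93.2 and 73.3, differences of -0.71 ± 0.17 and -0.80 ± 0.17 below the 2-fold minimum, while Foxa3 was lower by -4.30 ± 0.27.

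Members of the same adhesion families differed in both directions between the libraries of the 2 organs. Among desmosomal genes, Dsg3 and Dsc3, cadherins of squamous desmosomes, stood at 16.2 and 20.5 CPM against 0 and at 23.3 and 18.5 against 0 and 0.382. Their simple-epithelial partners were lower in the forestomach, Dsg2 by -3.03 ± 0.22 and the plakophilin Pkp2 by -3.74 ± 0.45. Dsc2 was lower by -2.09 ± 0.64, a call lost without either forestomach library. The shared plaque genes Jup (plakoglobin) and Dsp (desmoplakin) differed little, by -0.39 ± 0.23 and 0.12 ± 0.23. Perp, a desmosome protein under the control of p63, was higher by 3.01 ± 0.32. Over the 15 tested genes of the desmosome and adhesion list, 7 were higher and 6 lower, a median of 0.12. At E14 the list had 9 higher and 2 lower, against 4.66% and 7.29% of all tested genes. The change between stages was called downward for 7 and upward for 2, against 11.4% and 14% of all tested genes. Markers of other cell types took up 5.38% and 6.5% of forestomach counts at E16, and their part in these differences was not tested.

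Cadherins outside the desmosome differed in both directions. Cdh3, P-cadherin of basal cells, stood at 36.7 and 60.6 CPM against 1.86 and 2.02. Cdh1, E-cadherin, stood at 102 and 91.7 against 778 and 699 (-2.93 ± 0.13), with an E14 difference of 0.34 that was not called. Markers of other cell types took up 5.38% and 6.5% of counts in the forestomach libraries, smooth muscle and mesenchyme among them. Their part in the cadherin and junction gene differences, Cdh1 and Gja1 included, was not tested. Cdh17, the liver-intestine cadherin, stood at 1.08 and 0 against 989 and 936. Among connexins of gap junctions, Gja1, which smooth muscle and mesenchyme also express, and the skin connexin Gjb6 were higher, by 2.60 ± 0.18 and by at least 29.8-fold. Gjb2 was not called, and Gjb1 of liver and gut was lower by -8.76 ± 0.41. Of 24 tight and gap junction genes, 5 were higher, near the 18.6% of all genes, and 15 lower; without forestomach replicate 1, 3 were higher. Cldn7, a claudin of simple epithelium, stood at 80.4 and 68.7 against 1217 and 1240 CPM, and Cldn2, which forms a cation channel, at 0.617 and 2.76 against 301 and 298. The occludin gene Ocln was lower by -3.46 ± 0.21. Cldn1, the barrier claudin of skin, was not called (-0.37 ± 1.30).

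Of 6 simple-epithelial keratins, 3 were lower, 2 higher and 1 not called. Krt8 stood at 377 and 347 CPM against 3515 and 3297 (-3.23 ± 0.24) and its partner Krt18 at 144 and 166 against 888 and 880 (-2.51 ± 0.17). Krt20, the keratin of mature enterocytes, was lower by -4.30 ± 0.39. Krt7, a keratin of ducts and transitional linings, was higher by 1.31 ± 0.21. Krt23 was higher by 1.87 ± 0.61, a call lost without forestomach replicate 1, without intestinal replicate 2 and in wild-type libraries alone. Krt19 did not pass the 2-fold minimum (-0.95 ± 0.21), although it did without forestomach replicate 2. Krt8 and Krt18 had E14 differences of 0.38 and -0.22 that were not called, and the part of the markers of other cell types in their E16 differences was not tested.

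**Figure D4:**
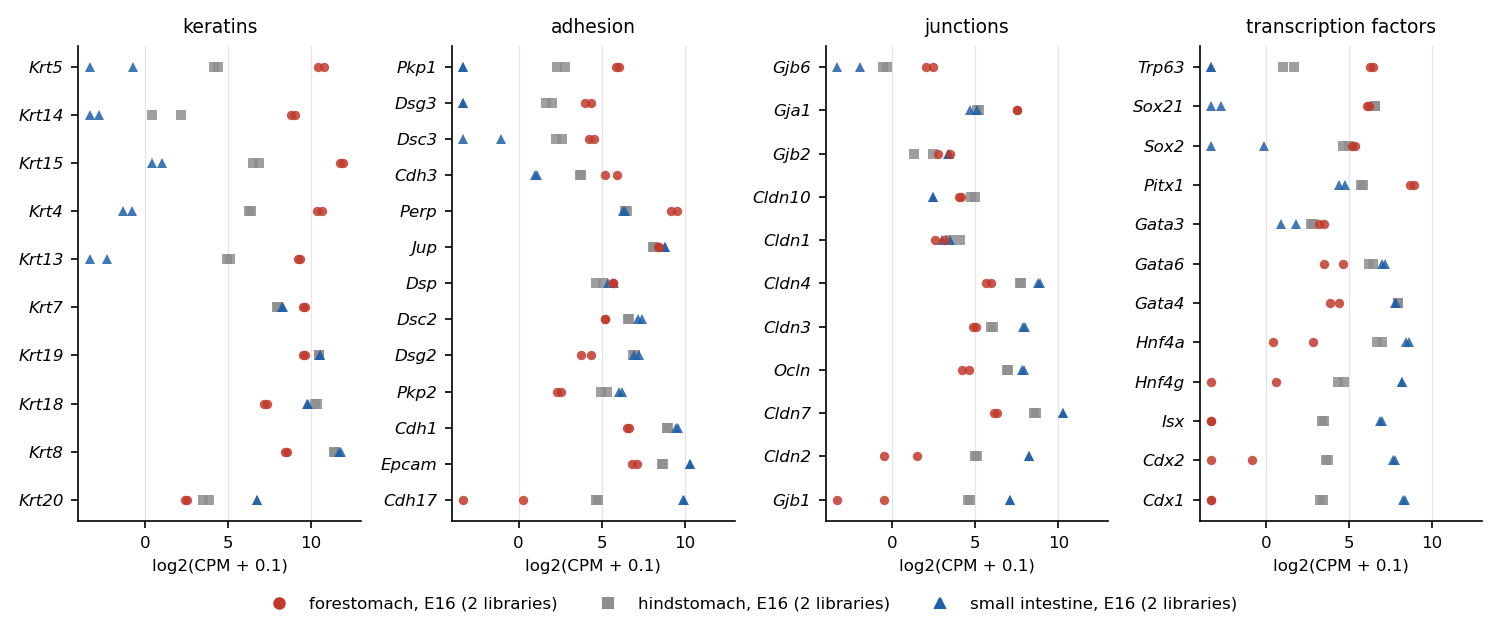
Level of keratin, adhesion, junction and transcription factor genes in the E16 libraries, as log2(CPM + 0.1); each point is 1 library. Within each panel genes run from those high in forestomach (circles) to those high in small intestine (triangles), and the genes between them, such as Jup, Dsp, Gjb2 and Cldn1, have overlapping or neighbouring values.

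Genes of epithelia in general were also lower in the forestomach. Of 16 tested, 9 were lower, 1 higher and 6 not called, a median of -1.32. Epcam, the protein used for the sort, stood at 137 and 112 CPM against 1284 and 1291 (-3.37 ± 0.14). The factor Elf3 differed by -2.54 ± 0.28 and the membrane protease St14 by -1.95 ± 0.15, and Klf4, a factor of differentiated squamous cells, was the 1 higher gene (2.27 ± 0.21). At E14 the same list had 3 higher and 1 lower, against 4.66% and 7.29% of all tested genes. Epcam and Cdh1 differed by -0.69 and 0.34 at that stage, neither called. The change between stages passed the test for 11 of the 16, all downward, against 11.4% of all tested genes downward. Markers of other cell types summed to 5.38% and 6.5% of counts in these forestomach libraries, and their part in the lower epithelial genes was not tested.

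Most genes of the absorptive lists were lower in the forestomach. Of 20 microvillus and brush border genes, 19 were lower and 1 was not called, with a median of -6.33 (-6.26 with genes absent from the forestomach at their bound). Cdhr5, the partner of Cdhr2 in the links between microvilli, stood at 0.926 and 0 against 408 and 391 CPM, and the link scaffolds Myo7b and Anks4b were at least 326- and 74.3-fold lower. Among other cytoskeletal genes of microvilli, Ezr (ezrin) was lower by -1.61 ± 0.12 and Espn (espin) by -3.11 ± 0.19. Pls1, fimbrin of the microvillus core, stood at 4.32 and 6.12 against 434 and 417 CPM. At E14 it was level, at 86.7 and 83.2 against 79.7 and 85.4, so both organs moved apart between the stages.

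Of 20 brush border hydrolases, 15 were lower and the other 5 were not called. Lct, the lactase of suckling young, stood at 0.617 and 0.612 CPM against 483 and 423 (-9.51 ± 0.52), and Alpi, intestinal alkaline phosphatase, at 0.154 and 0 against 676 and 615. The peptidases Anpep, Dpp4 and Enpep were lower by -5.97 ± 0.42, -4.28 ± 0.33 and -5.38 ± 0.38. Among the genes not called, Sis, sucrase-isomaltase, stood at 7.15 and 6.82 CPM there and 0 in the forestomach, without passing edgeR's test (adjusted p = 0.0834), though it passed in the fits of the 2 groups alone, of wild-type libraries alone, with a replicate block and on thinned counts, and Treh (trehalase) and Tmprss15 (enteropeptidase) had no count in any of the 4 libraries.

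Fat uptake and lipoprotein genes had the lowest median of the 28 lists drawn, -6.98, with 18 of 23 lower and the other 5 not called. Apoa1 and Apoa4, apolipoproteins of chylomicrons, stood at 10.3 and 7.96 against 2541 and 2448 CPM and at 2.93 and 6.58 against 3912 and 3609. Apob, their structural protein, was at least 1911-fold lower, and Mttp, which loads lipid onto it, differed by -8.64 ± 0.30. Mogat2 and Dgat2, enzymes of triglyceride synthesis, were lower by -9.06 ± 0.32 and -3.10 ± 0.26. The lipoprotein and fatty acid receptor genes Scarb1 and Cd36 did not pass. Scarb1 stood at 93.7 and 89.6 against 109 and 86.7 CPM and Cd36 at 42.5 and 69.8 against 58.9 and 88.8. Fatty acid binding proteins differed in both directions. Fabp1 and Fabp2 of enterocytes stood at 4.94 and 2.60 against 1855 and 1813 CPM and at 2.01 and 1.68 against 1496 and 1495. Fabp5, the epidermal form, stood at 576 and 431 against 49.8 and 46.1 (3.39 ± 0.25), and the heart form Fabp3 was higher by 2.18 ± 0.47. Fabp4, the form of fat and vessel cells, was higher by 2.21 ± 0.56, a call lost without intestinal replicate 1. Endothelial markers took up 0.029% and 0.0295% of forestomach counts against 0.00565% and 0.00701%, and skeletal muscle markers 0.0106% and 0.0146% against 0.000761% and 0.000814%; their part in the Fabp3 and Fabp4 differences was not tested. The remaining Fabp6 and Fabp7 were not called.

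Of 26 transporters, 23 were lower and 1 higher. The E16 hindstomach, set against the intestine, had 24 of these 26, 19 of the 23 lipid genes and 15 of the 20 hydrolases lower, and 0 higher. Between forestomach and hindstomach 8, 14 and 5 of the 3 lists were lower in the forestomach and 1, 1 and 0 higher. The sodium-glucose transporter Slc5a1 stood at 2.78 and 3.83 against 422 and 424 CPM, and the amino acid transporters Slc6a19 and Slc3a1 were at least 220- and 301-fold lower. The bile acid exporter subunit Slc51a was at least 462-fold lower and the chloride channel gene Cftr lower by -5.67 ± 0.31. The iron genes Slc11a2 (uptake) and Slc40a1 (ferroportin) differed by -2.10 ± 0.17 and -3.62 ± 0.16. The 1 transporter higher than in the intestine was Slc46a1, which carries folate, at 17.1 and 25.9 against 9.56 and 10.4 CPM. Its call was lost without forestomach replicate 2 or intestinal replicate 1. Of 8 aquaporins, 1 was higher, 4 lower and 3 not called. Aqp3, the glycerol and water channel of stratified epithelium, was higher by 3.71 ± 0.34 and Aqp8, Aqp11 and Aqp4 were lower, Aqp8 by at least 64.5-fold, Aqp11 by -5.43 ± 0.49 and Aqp4 by -4.78 ± 0.78. Aqp7 was lower by -2.06 ± 0.65, a call lost without either forestomach library or intestinal replicate 1. Of 25 drug and steroid metabolism genes, 15 were lower and 4 higher (2 higher without forestomach replicate 1), among them the carboxylesterase Ces2e, at least 403-fold lower, and the sulfotransferase Sult1d1 (-8.39 ± 0.60), against Gsta4, higher by 2.65 ± 0.14.

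Secretory lineages of the intestine were lower too. Of 13 goblet cell genes, 11 were lower and the other 2 were not called. Tff3, a trefoil peptide of mucus, stood at 1.24 and 0.919 against 649 and 609 CPM and Fcgbp, a mucus protein, at 1.08 and 0.765 against 1325 and 1072. The gel-forming mucin Muc2 was low in the intestine as well, at 32.1 and 23.9 CPM against 0.154 and 1.68. Of 22 enteroendocrine genes, 17 were lower and 1 higher. The hormone genes Cck and Gip were at least 209- and 66.5-fold lower, Sct (secretin) by -7.61 ± 1.2, and the progenitor factor Neurog3 by -4.08 ± 0.75. The granule gene Chga was not called, at 23.3 and 26.2 against 34.2 and 42.9 CPM, and the 1 higher gene, Isl1 (2.00 ± 0.80), lost its call without any 1 of the 4 libraries, with a replicate block and in wild-type libraries alone.

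Stem and progenitor genes of the adult intestine had no common direction, with 7 of 19 lower and 6 higher. Lgr5, the receptor that marks crypt base cells, stood at 1.24 and 0.459 against 37.6 and 25.3 CPM (-5.21 ± 0.44), and its relative Lgr4 was lower by -1.77 ± 0.20. Tnfrsf19 stood at 106 and 150 against 2.06 and 1.37 (6.21 ± 0.39), and Ephb3, Smoc2 and Znrf3 were higher by 3.11 ± 0.27, 1.74 ± 0.22 and 1.51 ± 0.33. Of 16 gastric glandular genes tested, 9 were higher and 3 lower. Ctse, cathepsin E of gastric surface cells, stood at 125 and 134 against 7.80 and 7.21 CPM with a hindstomach mean of 377, and the proton pump gene Atp4a at 26.9 and 26.0 against 0.352 and 1.201 with a hindstomach mean of 326.

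Of 32 Wnt pathway genes tested, 21 were higher in the forestomach and 3 lower. Some are known from squamous epithelium and had no or nearly no intestinal count, Wnt10a at 54.2 and 50.1 CPM, at least 331-fold higher, and Wnt7b at 32.4 and 27.6, at least 191-fold higher. Wnt4 stood at 149 and 113 against 2.52 and 2.89. Others are typical of mesenchyme, such as the antagonist Sfrp2 at 186 and 182 against 0.956 and 1.04 CPM, Wnt5a (4.45 ± 0.48) and Dkk3 (4.48 ± 0.33). At E14 the Wnt4 and Wnt10a differences were 5.50 and 10.46, both called, and those of Sfrp2, Wnt5a and Dkk3 were 0.12, -0.46 and -0.55, none called. Lower in the forestomach were the receptor gene Fzd5 (-2.43 ± 0.32), the co-receptor gene Lrp6 (-1.21 ± 0.14) and Sfrp5 (-7.05 ± 0.55). The epithelial Hedgehog ligands were lower in the forestomach, Ihh at 5.40 and 9.19 against 159 and 156 CPM and Shh at 1.70 and 2.45 against 6.09 and 9.94. Of the 14 Hedgehog genes tested 6 were higher, 2 lower and 6 not called, the higher ones including the co-receptors Gas1 (5.41 ± 0.44) and Boc (4.62 ± 0.54). Of 23 BMP and TGF-beta genes 12 were higher and 2 lower (1 without forestomach replicate 2). The activin antagonist Fst stood at 85.4 and 105 CPM against 0.0503 and 0, with an E14 difference of 0.48, and Id3 and Id4, targets of BMP signalling, differed by 2.24 ± 0.36 and 2.86 ± 0.32. Mesenchymal markers took up 1.31% and 1.5% of counts in the same libraries, and their part in these counts was not tested.

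Notch genes counted 6 higher and 1 lower of 19, but 2, 3 and 1 higher without forestomach replicate 2, intestinal replicate 1 and intestinal replicate 2. Only the ligand Dll1 was lower (-2.27 ± 0.30), and in the fit of the 2 groups alone and on thinned counts 2 were. Of 20 genes of EGF and FGF signalling, 3 were higher, below the share of all genes, and 6 lower: the receptors Fgfr1, Fgfr2 and Fgfr3 by 2.59 ± 0.27, 1.30 ± 0.15 and 1.45 ± 0.19, against Erbb3 (-3.60 ± 0.37), Met (-2.09 ± 0.22) and the ligands Areg (-3.29 ± 0.42) and Hbegf (-2.40 ± 0.43) among those lower. Of 22 retinoid genes, 8 were higher and 5 lower. Rbp2 and Lrat, which hold and store retinol in the enterocyte, stood at 6.02 and 4.75 against 688 and 669 CPM and at 0.926 and 0 against 90.0 and 74.1. Aldh1a2, the retinoic acid-making enzyme of mesenchyme and mesothelium, stood at 175 and 197 against 5.18 and 8.13, and the receptors Rarb and Rarg were higher by 3.54 ± 0.51 and 3.00 ± 0.30. Of 35 Hox genes tested, 13 were higher and 1 lower. Hoxc5 stood at 80.3 and 83.4 against 0.906 and 0.819 CPM and Hoxc4 at 25.0 and 28.0 against 1.16 and 1.201, and both were called at E14 (7.32 and 5.38). Hoxb6 and Hoxb7 were higher by 5.46 ± 1.23 and 4.09 ± 0.91, with E14 differences of -1.69 and -1.38 that were not called. Over the same stages 10 of 12 mesenchymal and 8 of 8 smooth muscle markers changed toward the forestomach, and their part in the Hox and retinoid genes and in Fgfr1, which mesenchyme also expresses, was not tested. The 1 lower gene, Hoxa10, had at most 0.805 CPM, and its call was lost without any of 3 libraries (both of the forestomach and intestinal replicate 1), with relative log expression, in the fit of the 2 groups alone and on thinned counts.

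Proliferation genes differed little. Of 31 cell cycle genes, 2 were higher and 3 lower, under the shares of all genes, with a median of -0.35. Mki67 stood at 54.2 and 84.5 against 70.2 and 65.6 CPM and Cdk1 at 102 and 105 against 100.3 and 103. Mcm6 and Top2a were lower by -1.30 ± 0.14 each, Bub1 by -1.36 ± 0.25, and Ccnd2, cyclin D2, was higher by 1.15 ± 0.14. The second higher gene, E2f1, lost its call without forestomach replicate 2 or intestinal replicate 2. Of 10 genes of fetal timing, 5 were lower, among them Hmga2 (-2.47 ± 0.24), the RNA-binding protein gene Igf2bp3 (-1.97 ± 0.13) and Arid3a, at 12.2 and 10.6 against 118 and 146 CPM (-3.54 ± 0.25). The imprinted growth genes H19 and Igf2 were not called (-0.48 ± 0.15 and 0.29 ± 0.25).

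More genes differed between the organs at E16 than at E14, and the E14 libraries share none with those of E16. At E14 the test called 2059 genes (11.9%), of which 803 (4.66%) stood higher and 1256 (7.29%) stood lower in the forestomach. Of the 803, 511 (63.6%) were also called higher at E16, which is 15.9% of the E16 calls, and 41 were called lower. Of the 1256, 642 (51.1%) were also lower at E16, 22.7% of the E16 calls, and 207 were called higher. The test of the change itself called 4381 genes (25.4%), 2422 (14%) toward the forestomach and 1959 (11.4%) toward the intestine, or 2718 and 1642 with relative log expression and 2939 and 1783 with DESeq2. It called 8 of 8 smooth muscle, 6 of 6 blood, 10 of 12 mesenchymal and 11 of 12 immune markers toward the forestomach. Markers of other cell types went from 0.0643% and 0.0585% of forestomach counts to 5.38% and 6.5%, and their part in the changes was not tested.

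Basal genes were in place at E14, with 13 of 15 called higher and 1 of 15 changing toward the forestomach by E16, Cdh3 (3.31), and 4 away from it. Suprabasal genes went from 12 to 20 of 20 called, and 6 passed the test of the change upward and 2 downward. Dmkn, dermokine, stood at 0 and 0.289 CPM in the E14 forestomach and 142 and 108 at E16, and Psca at 1.24 and 0.470 and then 710 and 733. Cornified genes called were 4 of 18 at E14 and 13 at E16 (8 without intestinal replicate 1), and 4 passed the test of the change. Sox2 and Anxa8 changed the other way, as did Itga3, Itga6, Itgb4 and 11 of 16 pan-epithelial genes, in the libraries where markers of other cell types took up 5.38% and 6.5% of counts; the part of those markers was not tested. Sox2 stood at 190 and 153 CPM in the E14 forestomach and 41.4 and 35.4 at E16. Its difference between organs changed by -4.17 ± 1.12 (interaction test, adjusted p = 0.00879). Anxa8, an annexin of squamous cells, stood at 134 and 136 and then 53.9 and 42.7 in the forestomach (change in the difference -6.21 ± 0.97). Both changes also take in the intestinal levels of the 2 stages, so they are not the fall in the forestomach alone.

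Of 27 intestinal transcription factors, 21 were called lower in the forestomach at E14 and 22 at E16, and 11 changed toward the intestine and 5 away from it. Cdx2 stood at 123 and 152 CPM in the E14 intestine, Cdx1 at 12.1 and 10.8 and then 324 and 299. The test of the change called 14 of 20 brush border genes, 5 of 20 hydrolases, 11 of 23 lipid genes, 9 of 26 transporters, 8 of 13 goblet genes and 8 of 22 enteroendocrine genes, each toward the intestine. Called as lower in the forestomach at E14 and then E16 were 13 and 19 brush border genes, 11 and 15 hydrolases, 13 and 18 lipid genes, 11 and 23 transporters, 3 and 11 goblet genes and 4 and 17 enteroendocrine genes. Mttp changed by -6.97 ± 0.34, standing at 56.1 and 61.6 CPM in the E14 intestine and 1750 and 1677 at E16. Prdm1, a repressor of mature enterocyte genes in the fetal gut, went against its list: it stood at 163 and 173 CPM in the E14 intestine and 89.4 and 70.5 at E16, and at 0.300 and 0.615 and then 12.97 and 10.1 in the forestomach (change 5.69 ± 0.39). From E12 the change called 5312 genes (30.8%), 2545 (14.8%) toward the forestomach and 2767 (16.1%) toward the intestine, and in a fit of the compared groups alone it called 3495, 1605 of them toward the forestomach. The balance turned with the scaling: 2900 toward the forestomach and 2334 toward the intestine with relative log expression, 3101 and 2498 with DESeq2, and 2689 and 2345 on thinned counts. At E12 the median difference was 1.16 over the basal list and 0 over the suprabasal list. The 2 E12 small intestine libraries correlated at 0.9466, the lowest among the forestomach and small intestine groups of E12, E14 and E16. In them 13232 and 15507 genes had a count.

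**Figure D5:**
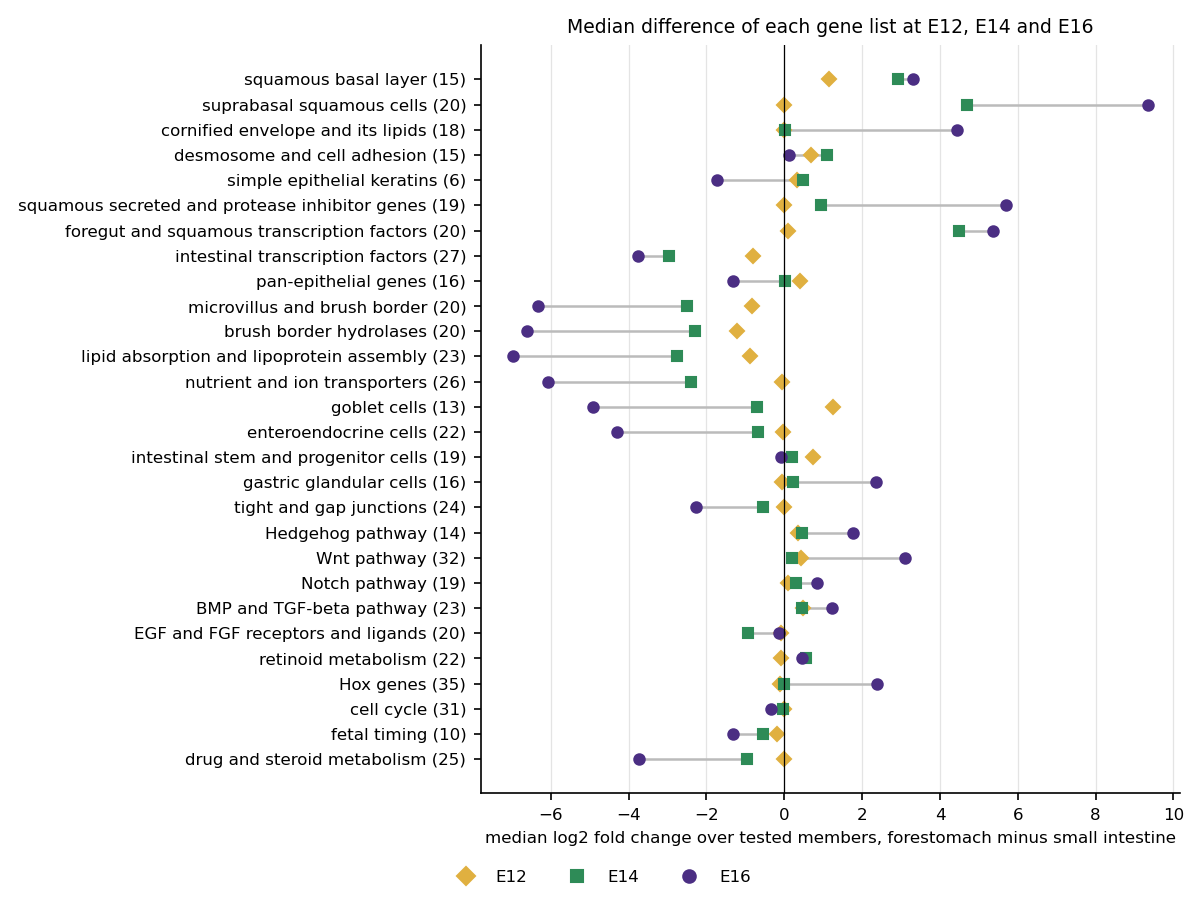
Median log2 difference, forestomach minus small intestine, over the tested members of 28 gene lists at E12 (diamonds), E14 (squares) and E16 (circles); each point is 1 median, with the number of genes in brackets. At E14 the basal (2.93), suprabasal (4.7), foregut factor (4.48), intestinal factor (-2.96) and lipid (-2.77) medians lie far from 0, and the cornified, goblet and enteroendocrine medians within 1 of it. With genes absent from an organ at their bound, the E16 medians of those last 3 are 3.99, -4.92 and -3.58.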

How the data were processed

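The values used were raw read counts per gene symbol in one table deposited by the authors, whole numbers with no normalization. Per the labels' protocols, sorted cells were lysed in TRIzol, and libraries were made with the SMARTer v4 kit and read as 75 bp single-end reads on a NextSeq 500. The submitters' processing notes name build mm9, STAR 2.5.3a and HTSeq, with no parameters or strand setting, so overlapping and antisense genes and near-identical copies cannot be told apart. Of 24015 symbols 22935 matched the gene name tables, 2 columns that match no sample were not used, and 2 rows without a gene name held no embryonic values. ATAC-seq, ChIP-seq and adult libraries were not analysed here.

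Libraries were grouped by their titles. The 27 embryonic libraries in 13 groups, 20 of them wild type, were fitted together in edgeR 4.0.16 (R 4.3.3), among them the Cdx2-deleted small intestines of E16 and E18, which entered the scaling and the estimate of spread but no comparison. Library sizes were scaled by TMM, genes were kept by filterByExpr (10 counts), and contrasts were tested by quasi-likelihood with Benjamini-Hochberg adjustment over all tested genes. A gene was called at an adjusted p below 0.05 and a log2 fold change of at least 1, and changes between stages were tested as interaction terms. Where every library of an organ had 3 counts or fewer, the fold was computed against 3 counts per library and is a lower bound; this floor covers counting error only. On simulated counts of 200 changed genes the E16 comparison recovered 14 of 50 changed 2-fold and 45 of 50 changed 4-fold. It recovered all of those changed more, with 3 false calls among 16297 genes. The change from E14 to E16 recovered 5 of 50 changed 2-fold and 32 of 50 changed 4-fold, with 9 false calls. The simulation gave all genes one spread and, apart from the changed genes, equal means in all groups. The real libraries differ in both, so these counts are not error rates of the comparisons here.

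The members, the gene lists and the tests were chosen with earlier results of these data known. Named genes were, in each direction, the 10 largest called fold changes among genes averaging log2 CPM 2 or more whose values did not overlap between organs, up to 6 called members per direction and up to 4 not called of each list, and for interactions the leading list members. Interaction genes were limited, after their values were seen, to those above the floor in at least 1 library of each group. Other list members in the text, among them Prdm1, Anxa8, Hnf4a, Pitx1, Krt1, Krt10 and Mki67, were chosen after their values were seen. Replicates of a group differed by more than sampling noise (chi-square per degree of freedom 10.65 in the forestomach and 9.388 in the small intestine). Promoters came from the RefSeq table of GRCm38.p6, which held 12705 of the 17239 tested genes. Alternatives were relative log expression, DESeq2 1.42.0, no filter, fewer libraries in the fit, a replicate block, thinning to 5970227 counts, leaving out each library and no fold minimum. Some items are not reported here.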

Additional observations from a re-analysis of the deposited data

Results flagged for a closer look

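The difference between forestomach and small intestine was itself different at E16 and E14 for 4381 genes, by the interaction term of edgeR's quasi-likelihood fit. The list members that changed most toward the forestomach were of 2 kinds. Psca (9.79 ± 1.72, SE) and Dmkn (8.96 ± 0.91) are squamous genes. Dkk2, a Wnt antagonist (9.44 ± 1.92), Gas1 (8.39 ± 0.60) and the smooth muscle genes Lmod1 (9.15 ± 1.25) and Actg2 (8.10 ± 0.60) are known from mesenchyme or muscle. Dkk2 stood at 0.342 and 0 CPM in the E14 forestomach and 6.64 and 15.6 at E16, and at 3.27 and 2.52 and then 0 and 0.546 in the intestine. Actg2, enteric smooth muscle actin, stood at 6.63 and 5.28 CPM in the E14 forestomach and 4754 and 6084 at E16, and at 18.1 and 17.6 and then 53.4 and 65.3 in the intestine. Smooth muscle markers together went from 0.00456% and 0.00505% to between 2.12% and 2.57% of forestomach counts between the stages, and their part in these changes was not tested.

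Toward the intestine the leading changes were those of Fcgbp (-7.31 ± 0.92), Mttp (-6.97 ± 0.34), Lct (-6.86 ± 1.69), Apoa4 (-6.50 ± 1.19), Pls1 (-6.39 ± 0.33) and Chgb (-6.23 ± 0.96). Apoa4 stood at 8.74 and 7.73 CPM in the E14 intestine and 3912 and 3609 at E16, with at most 6.58 in any forestomach library of the 2 stages. Chgb, a granule protein of endocrine cells, stood at 42.0 and 48.0 CPM in the E14 forestomach and 4.63 and 1.84 at E16, while the intestine went from 54.7 and 57.5 to 337 and 266.

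Between E12 and E16 the difference changed for 5312 genes, or 3495 in a fit of the compared groups alone. Krt4 (13.77 ± 1.24) and Psca (11.63 ± 2.63) led toward the forestomach, and Fcgbp (-12.18 ± 0.98) and Mme, the peptidase neprilysin (-9.48 ± 1.12), toward the intestine. Fcgbp and Mme differed at E12 by 1.84 and 3.72, on the forestomach side.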

How the results depend on the processing

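The E16 counts of called genes ran from 5176 to 5484 without any one library (2550 to 2841 higher, 2508 to 2762 lower). DESeq2 called 3651 higher and 2339 lower. Without the fold minimum 3970 were higher and 4283 lower, which turns the balance of 3213 higher and 2824 lower in the main fit. The change since E14 was called for 3538 to 4042 genes without any one library, and the change since E12 for 4694 to 6316; in a fit of the compared groups alone the latter was 3495, of which 1605 toward the forestomach. Without E12 small intestine replicate 2, 3802 changed toward the intestine since E12. Of 564 list genes tested, 386 were called, 320 of them under every alternative. One reversed: Cyp26b1, a retinoic acid-degrading enzyme with at most 2.60 CPM, had a difference of 3.06 that became -0.05 without forestomach replicate 2 and 8.08 without intestinal replicate 2; the cause was not tested. With a replicate block 6043 genes were called at E16, 3192 higher and 2851 lower. The labels do not say whether libraries with the same replicate number share a litter or a preparation. The replicate differences of the organs correlated at -0.00664 over 17239 genes, which cannot exclude a small or organ-specific shared effect. At the forestomach depth 3 counts, the floor used for folds, are 0.461 CPM, and a level below that rests on fewer counts.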
